A study of Mus musculus with 4 samples.

Results

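Genes of the cell cycle and of DNA replication were followed in mouse group 3 innate lymphoid cells (ILC3s) kept in medium or stimulated with TL1A. The set holds 54 named genes of the 24343 in the count table, each taken as the sum of its deposited transcript rows. By role, 35 act in DNA replication or its onset and 19 in mitosis. ILC3s are lymphocytes without rearranged antigen receptors that respond to IL-23 at mucosal surfaces. TL1A is a cytokine of the TNF superfamily that binds the receptor DR3. All cells carried the genotype IL23R-GFP/WT, a reporter at the IL-23 receptor locus, and were sorted as Lin-CD127+IL23R-GFP+. There were 2 libraries of cells in medium and 2 of cells with TL1A. Mouse age, TL1A dose and culture time are not stated in the labels. Nor do they say if the 2 libraries of one condition stem from different mice or cultures, so the spread that p-values rest on may be purely technical.

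A cell that leaves rest passes through G1, in which cyclin D and cyclin E kinases inactivate the retinoblastoma family and release E2F transcription factors. E2F factors then switch on genes for origin licensing, the replication fork and nucleotide supply. Before S phase the origin recognition complex, Cdc6 and Cdt1 load the MCM helicase onto DNA, and Mcm10, Cdc45 and the GINS complex turn that helicase on. Mitotic genes follow later in the cycle under a separate set of regulators that includes MuvB, B-Myb and FoxM1, which act through CHR elements in their promoters. Mki67 and Top2a are much used as markers of cycling lymphocytes. In bulk libraries, a change in the share of cycling cells and a change in RNA per cell cannot be told apart.

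Promoter sequences of 4 members are shown because they carry the letters by which each arm is usually recognised, while the members themselves behaved differently. Windows of 300 bases, 250 before and 50 after an annotated start, were taken from RefSeq on GRCm38.p6, and 45 of the 54 members matched by symbol, with 52 windows. The E2F motif was searched on both strands as TTTCCCGC, TTTCGCGC, TTTGCCGC and TTTGGCGC, the CHR element as TTTGAA and the CCAAT box as CCAAT. Of 37 windows of replication members, 15 (40.5%) held an E2F match, against 1 of 15 windows of mitosis members (6.67%) and 2.27% of all 32851 windows. A CHR match was found in 10 of 15 mitosis windows (66.7%), in 5 of 37 replication windows (13.5%) and in 17.9% of all windows. CCAAT occurred in 86.7% of mitosis windows, 59.5% of replication windows and 37.4% of all windows. The windows printed are chr1:20820263-20820562 for Mcm3, chr5:138171834-138172133 for Mcm7, chr11:99024140-99024439 for Top2a and chr7:135716330-135716629 for Mki67, each on the minus strand and written 5′ to 3′ in the direction of the gene. Capitals mark E2F matches in the Mcm genes and CHR matches in the other two.
Mcm3: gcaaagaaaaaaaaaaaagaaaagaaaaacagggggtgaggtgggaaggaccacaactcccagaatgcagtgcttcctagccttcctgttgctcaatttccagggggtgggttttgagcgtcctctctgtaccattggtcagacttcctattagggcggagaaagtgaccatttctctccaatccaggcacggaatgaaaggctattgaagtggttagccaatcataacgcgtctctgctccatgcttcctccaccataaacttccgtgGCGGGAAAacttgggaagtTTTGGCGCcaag
Mcm7: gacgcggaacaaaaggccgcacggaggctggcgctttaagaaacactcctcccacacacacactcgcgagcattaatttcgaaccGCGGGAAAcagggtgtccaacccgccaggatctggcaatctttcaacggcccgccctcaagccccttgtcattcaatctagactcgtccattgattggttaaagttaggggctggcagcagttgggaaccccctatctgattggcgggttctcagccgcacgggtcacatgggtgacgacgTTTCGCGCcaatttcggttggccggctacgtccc
Top2a: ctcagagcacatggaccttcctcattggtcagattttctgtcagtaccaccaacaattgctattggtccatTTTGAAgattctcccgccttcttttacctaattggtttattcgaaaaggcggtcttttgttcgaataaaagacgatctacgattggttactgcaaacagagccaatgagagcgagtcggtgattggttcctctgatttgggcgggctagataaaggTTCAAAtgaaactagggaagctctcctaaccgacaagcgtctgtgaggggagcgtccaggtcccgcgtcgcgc
Mki67: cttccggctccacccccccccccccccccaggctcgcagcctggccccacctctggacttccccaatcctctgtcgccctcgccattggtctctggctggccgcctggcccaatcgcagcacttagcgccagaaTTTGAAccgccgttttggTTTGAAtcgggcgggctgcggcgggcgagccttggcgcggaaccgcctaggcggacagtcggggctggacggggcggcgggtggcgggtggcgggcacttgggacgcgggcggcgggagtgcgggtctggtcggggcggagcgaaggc
Mcm3 and Mcm7 each held 2 E2F matches, and the second of Mcm7 overlapped a CCAAT match by its last base. A second annotated window of Mcm7 at chr5:138171217-138171516 held no E2F match. Top2a and Mki67 each held 2 CHR matches. With TL1A, Mcm3 rose and Mcm7 fell, and Top2a rose while Mki67 did not pass the test (values below). The matches are a description of letters in these windows and say nothing of which factor bound there.

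Assigned reads numbered 11495636 and 12222552 in the medium pair, and 11849977 and 12605164 in the TL1A pair. Of the ILC3 markers, Il7r was at 44605 and 48880 reads in the medium pair and 12994 and 13812 in the TL1A pair, and Il23r at 12643 and 13292 against 7132 and 7329 reads. Both fell, as did Ahr (log2 fold change -1.61) and Il1r1 (-2.14). Thy1 rose, from 1700 and 2103 to 7473 and 8403 reads (2.28), Id2 rose by 0.49 on the log2 scale, and Ccr6 did not pass (-0.18). Kit had 1 read in all 4 libraries together. Kit, Cd8a, Itgam and Eomes each have 2 transcript rows, and as reads shared between rows were not counted, their counts at or near 0 do not measure these genes. Il1r1, Ccr6, Klrk1 and Il1rl1 have several rows too, so their values rest only on reads not shared between rows. Uniquely placed reads outside annotated transcripts made up 35.0% and 32.3% of the medium libraries and 30.6% and 28.8% of the TL1A libraries. Markers of other cell types moved with the condition too. The summed level of the 7 T cell markers in the table was 497.1 and 513 CPM (reads scaled by library total and TMM factor) in medium and 211.1 and 205.7 CPM with TL1A, nearly all from Cd4, which some ILC3s carry, and Lat. In that list Cd8a was at 0, and Cd3e counts were 0 and 16 in medium, then 20 and 16 under TL1A. Of B cell markers, Blk was at 117 and 119 CPM in medium and 735 and 679 CPM with TL1A, and Cd79b at 35.9 and 47.2 against 114 and 97.7 CPM. Cd79a was at 8 reads in each medium library and 1 in each TL1A library, and Ms4a1 and Pax5, with 1 row each, were at 0. The 8 myeloid markers summed to 1641 and 1812 CPM in medium and 736.8 and 722.2 CPM with TL1A, mostly from Fcer1g, with Itgam at 0. Among them Adgre1 rose (log2 fold change 0.91), and Fcer1g (-1.25), Cd14 (-3.18) and Mpeg1 (-1.90) fell. Lyz2 (-0.65) and Csf1r (-0.16) did not pass. The sums were 12.6 and 9.05 against 23.9 and 18.3 CPM for 6 NK and ILC1 markers, with Eomes at 0. In that list Gzmb rose (log2 fold change 4.34), while Gzma (-2.32) and Klrk1 (-2.56) fell. For 6 ILC2 markers the sums were 216.7 and 224.2 against 293 and 271.4 CPM. There Klrg1 rose (2.29), Il1rl1 (-2.37) and Il17rb (-1.51) fell, and Gata3 (-0.21), Hpgds (-1.08) and Il13 (1.58) did not pass. For 6 epithelial and stromal markers they were 13.7 and 7.56 against 4.83 and 3.88 CPM, with Col1a1 at 0. The part of these markers in the results below was not tested.

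Whether a member could be measured followed the number of transcript rows deposited for it. The counting unit was the transcript: where transcripts of a gene share an exon, a read there falls on more than 1 row, and such reads were put in the ambiguous class. Of the 33 members with 1 row, 30 passed the filter on low counts. Of the 21 members with several rows, 3 passed, and the highest total of any of them was 105 reads over the 4 libraries. Over the whole table the filter passed 44.5% of genes with 1 row and 25% of genes with several. In all, 33 members were tested and 21 were not.

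The 11 members with 0 reads in every library were Orc6, Cdc6, Mcm5, Fen1, Ccne2, E2f2, E2f3, Uhrf1, Cenpa, Bub1 and Tpx2. Each has several rows except E2f2, whose single row was at 0, so for the others reads on shared exons were not counted. For E2f2 a count of 0 allows a level of up to 3 reads, or 0.238 to 0.261 per library on the CPM scale without TMM, for counting error only. Lig1, the DNA ligase that joins Okazaki fragments, counted 5 and 7 reads in the medium pair and 5 and 3 in the TL1A pair. Tk1, thymidine kinase, had 2 and 3 reads in each condition. Tyms, thymidylate synthase, had 1 read in all. E2f1 had 1 read in each medium library and 1 and 0 with TL1A. Aurka, Kif20a and Nusap1 had at most 2 reads in any library. Ccne1, the gene of cyclin E1, has 1 row and counted 13 and 5 reads in the medium pair and 4 and 1 in the TL1A pair. These members give no information on the effect of TL1A.

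**Figure D1:**
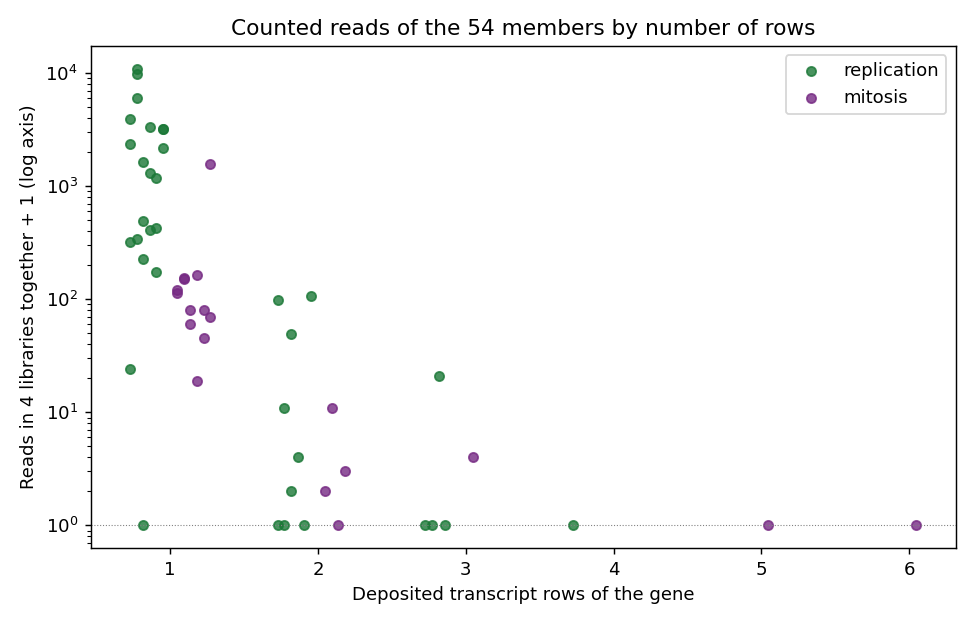
Reads of each of the 54 members summed over 4 libraries plus 1, on a log axis, against the number of transcript rows deposited for the gene; green points are replication members and purple points mitosis members, spread sideways for sight. Members with several rows lie at 105 reads or fewer, and those on the dotted line had 0 reads.

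Replication genes were detected at higher levels than mitosis genes in medium. Levels between genes were compared as RPKM, the assigned reads scaled by transcript length and library total, over the 33 members with 1 row and with lengths of the matching GENCODE transcripts. In medium the median was 13.8 over 21 replication members and 0.579 over 12 mitosis members. Mcm4 (57.9), Rfc4 (57.3) and Rrm1 (55.8) stood highest, and their order lay within the spread of the libraries. Top2a was the highest mitosis member, at 4.31, and ranked 14 of 33. Mki67, the gene of the proliferation antigen Ki-67, was at 0.337 and ranked 31. Ccnb1, the gene of cyclin B1, was at 0.240. With TL1A the medians of the same genes were 10.3 and 0.547 on this scale, which does not correct for the composition of the libraries.

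**Figure D2:**
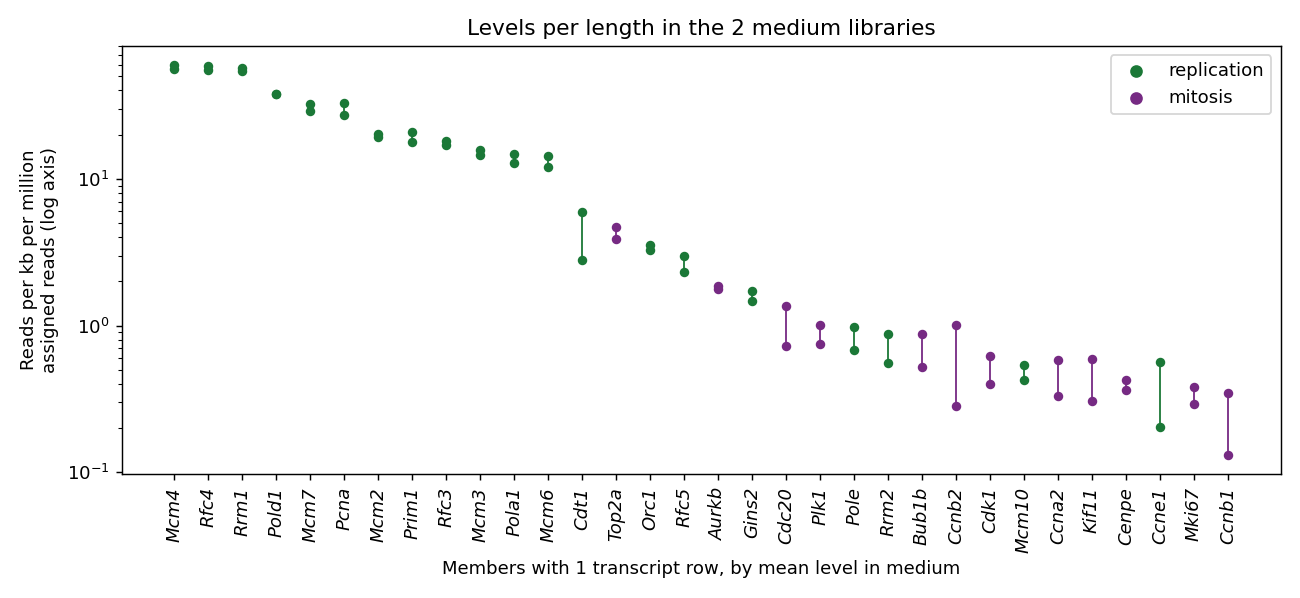
Level per transcript length (RPKM), on a log axis, of 32 members with 1 transcript row and at least 1 read in medium, ordered by mean; both medium libraries are points joined by a line, green for replication and purple for mitosis. Replication members fill the first 13 places, and the means of mitosis members other than Top2a and Aurkb lie near or under 1.

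With TL1A a minority of the tested members passed the test, in both directions, and 8 of the 9 that passed belong to replication. The difference between the arms was not tested. Members that missed the threshold or were not tested are not thereby shown to be unchanged. Of the 33 members tested, 7 rose and 2 fell, and 24 missed the threshold (edgeR quasi-likelihood test, Benjamini-Hochberg adjusted p under 0.05 over 9852 genes). This is 27.3% of the members tested, beside 42.3% of all genes tested, of which 20.6% were higher and 21.7% lower. Of the 22 replication members tested, 6 rose, 2 fell and 14 did not pass. Of the 11 mitosis members tested, Top2a rose and 10 did not pass. No mitosis member fell in edgeR, in DESeq2 or in limma-voom, and 1 had an unadjusted p under 0.05 in that direction. The median log2 fold change was 0.24 for replication, 0.01 for mitosis and -0.03 for all genes tested. Libraries of the conditions did not overlap for 20 of 33 members, 16 higher and 4 lower with TL1A, where 72.2% of all genes did not overlap, 34.7% higher and 37.6% lower. Both shares of members, called and not overlapping, were below those of all genes. With the total of assigned reads in place of TMM factors, 1310 genes were higher and 3475 lower, so that 27.4% of called genes were higher against 48.6% with TMM. That scaling moves the median of all genes to -0.29 and turns the sign of Mcm2, Mcm4, Gins1, Pold1, Pcna, Rfc4 and Ccna2, none of which passed under either scaling.

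**Figure D3:**
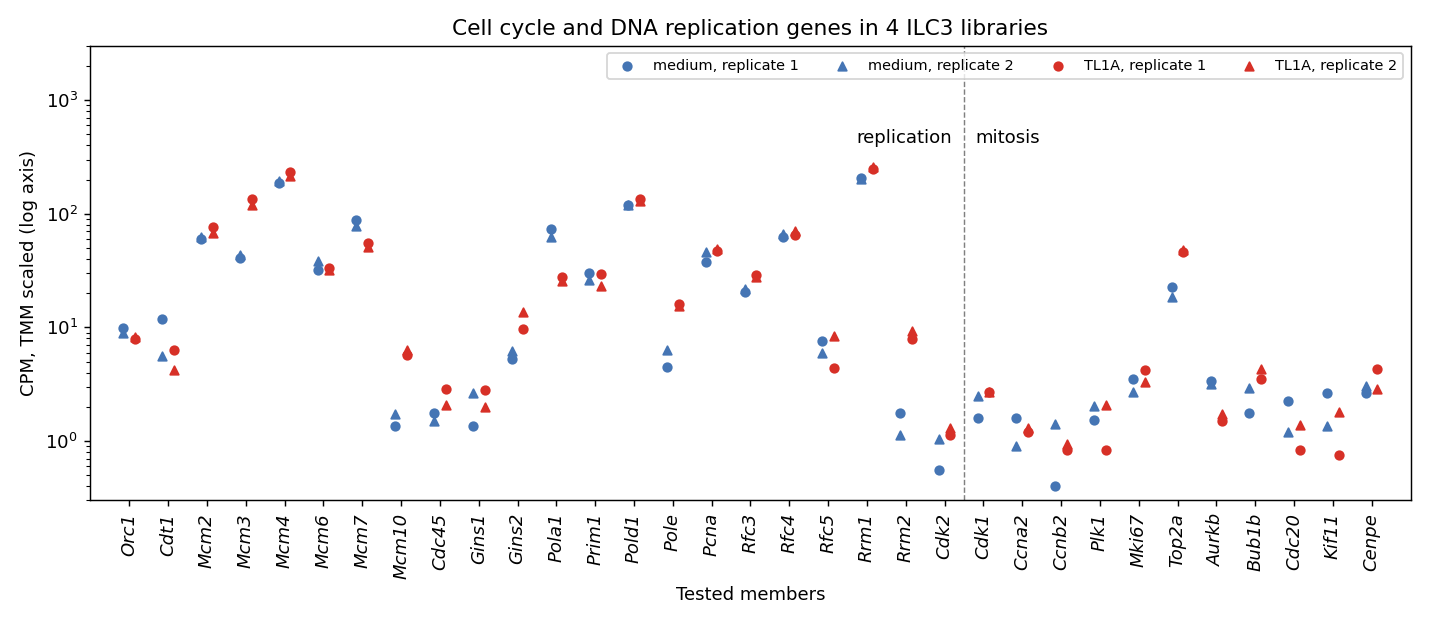
CPM scaled by TMM, on a log axis, of the 33 tested members in each library; blue is medium and red TL1A, circles are replicate 1 and triangles replicate 2. Mcm3, Mcm10, Gins2, Pole, Rrm2 and Top2a lie clearly higher in both TL1A libraries, Mcm7 and Pola1 lower, and most mitosis members lie at 5 CPM or less in every library.

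**Figure D4:**
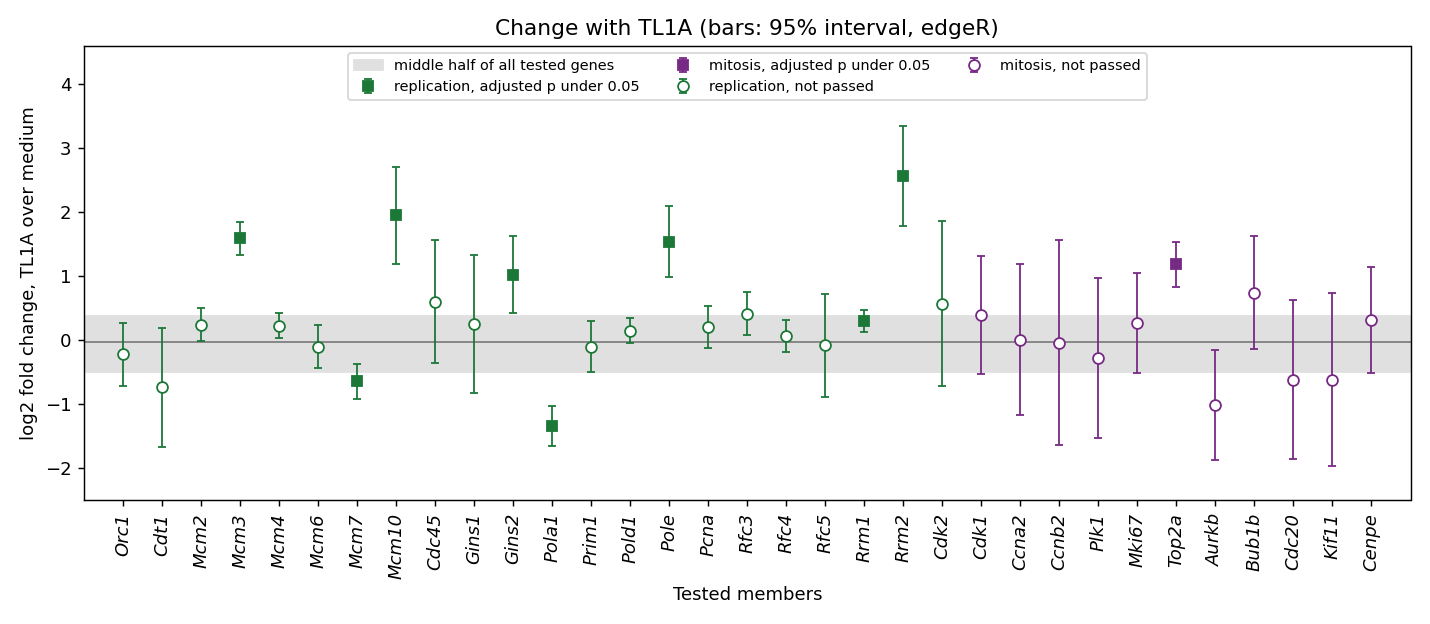
Log2 fold change of the 33 tested members, TL1A over medium, with 95% intervals; filled squares passed the test, open circles did not, green is replication and purple mitosis. The grey band spans the quartiles of all tested genes (-0.50 to 0.39), and the intervals of mitosis members other than Top2a are wide.

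Among 7 tested licensing members 1 rose and 1 fell, and both encode subunits of the MCM helicase. That is 28.6% called, beside 42.3% of all genes tested. Mcm3 was at 40.6 and 43.7 CPM in medium and at 134 and 121 CPM with TL1A. It rose 3.01-fold, from 42.2 ± 2.21 to 127.1 ± 9.34 CPM (SD, n = 2). The log2 fold change was 1.59 (SE 0.11, adjusted p by edgeR = 3.02e-05). Mcm7 was at 88.0 and 78.1 CPM in medium and at 55.4 and 51.0 CPM with TL1A. It fell by 0.64 on the log2 scale (SE 0.12, adjusted p by edgeR = 0.00375), and the groups of libraries of either gene did not overlap. The spans of Mcm7 and Ap4m1 overlap, and 3 miRNA genes lie within Mcm7. Reads that fall on more than 1 row went to the ambiguous class, and whether exons of these genes overlap was not checked. The spans of Orc1 and Prpf38a, Gins2 and Gse1, Rfc4 and Eif4a2, and Ccna2 and Exosc9 overlap as well. So do those of Cdc45 and Ufd1, Cdk2 and Pmel, and Cdc20 and Elovl1.

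Mcm2, Mcm4 and Mcm6, the other subunits of the ring that could be tested, gave smaller differences, and Mcm5 was not measured. Mcm4 was at 185 and 195 CPM in medium and 233 and 213 CPM with TL1A, a log2 difference of 0.23 (SE 0.08, adjusted p by edgeR = 0.0579). Mcm2 was at 59.3 and 62.1 CPM in medium and 75.9 and 68.0 CPM with TL1A (0.24, SE 0.11, adjusted p by edgeR = 0.12). Neither passed, although both TL1A libraries were above both medium libraries. Mcm4 passed when medium replicate 2 was left out (adjusted p = 0.0423). Mcm6 overlapped between conditions, at 32.2 and 38.0 against 33.4 and 32.2 CPM. The read ratio of Mcm3 to Mcm7, which no scaling factor touches, was 0.462 and 0.56 in the medium pair and 2.41 and 2.36 in the TL1A pair. This pair and the other ratios below were picked after their values were seen, and a ratio shows unequal change, not which gene changed.

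Of the members that load the MCM ring, Orc1 and Cdt1 were tested and did not pass. Orc6 and Cdc6 were not measured, and Orc5, from a further list, fell (below). Orc1, of the origin recognition complex, was at 9.79 and 8.99 CPM in medium and 7.91 and 8.19 CPM with TL1A. Cdt1, which brings MCM to origins, was at 11.9 and 5.62 CPM in medium and 6.32 and 4.22 CPM with TL1A. Its value rests on medium replicate 1: the log2 fold change was -0.73, but -0.10 without that library. Leaving out medium replicate 2 gave -1.16 and a pass (adjusted p = 0.0226). Leaving out TL1A replicate 1 gave -1.04, and leaving out TL1A replicate 2 gave -0.46.

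Of the members that activate the helicase, Mcm10 and Gins2 rose, and Cdc45 and Gins1 did not pass. Of these 4, 50% were called, beside 42.3% of all genes tested. Mcm10, which opens the loaded helicase, was at 1.35 and 1.72 CPM in medium and 5.67 and 6.29 CPM with TL1A, or 17 and 23 against 61 and 73 reads. Its log2 fold change was 1.95 (SE 0.33, adjusted p by edgeR = 0.00255). Gins2, a GINS subunit, was at 5.26 and 6.14 CPM in medium and 9.58 and 13.6 CPM with TL1A, with its libraries apart. It rose by 1.03 on the log2 scale (SE 0.26, adjusted p by edgeR = 0.0159). The Gins2 call was lost without medium replicate 1 (adjusted p = 0.0557) and without TL1A replicate 2 (0.0929). Cdc45, the helicase cofactor, counted 22 and 20 reads in the medium pair and 31 and 24 in the TL1A pair, an interval of -0.36 to 1.56 on the log2 scale. Gins1 had 17 and 35 reads against 30 and 23, an interval of -0.83 to 1.34. Both have 2 rows, so reads on exons that their transcripts share were not counted.

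At the replication fork the catalytic subunits of 2 polymerases changed in opposite directions. Of 8 tested fork members 25% were called, beside 42.3% of all genes tested. Pola1, the catalytic subunit of DNA polymerase alpha, which starts each new strand together with primase, was at 72.8 and 62.7 CPM in medium and 27.9 and 25.7 CPM with TL1A. It fell by 1.34 on the log2 scale (SE 0.14, adjusted p by edgeR = 0.000213). Pole, the catalytic subunit of polymerase epsilon, which extends the leading strand, was at 4.46 and 6.37 CPM in medium and 16.1 and 15.5 CPM with TL1A. It rose 2.91-fold (log2 fold change 1.54, SE 0.24, adjusted p by edgeR = 0.00168). For either gene the libraries of the conditions lay well apart.

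The other tested fork members did not pass, and Fen1 and Lig1 were not tested. Prim1, the primase partner of Pola1, was at 30.3 and 26 CPM in medium and 29.3 and 23.3 CPM with TL1A, and its libraries overlapped. The read ratio of Pola1 to Prim1 was 2.41 in each medium library and 0.952 and 1.10 with TL1A. Pold1, the catalytic subunit of polymerase delta, was at 120.2 and 119.5 CPM in medium and 135 and 130.4 CPM with TL1A, with an interval of -0.05 to 0.34 on the log2 scale. Pcna, the sliding clamp, was at 37.6 and 45.8 CPM in medium and 47.4 and 48.8 CPM with TL1A, with an interval of -0.12 to 0.53. A doubling of Pold1 or Pcna lies outside these intervals. Rfc3, of the clamp loader, was at 20.6 and 21.7 CPM in medium and 28.9 and 27.5 CPM with TL1A (log2 fold change 0.41, SE 0.14, adjusted p by edgeR = 0.0524). It passed with RLE scaling (adjusted p = 0.0442). Rfc4 and Rfc5 overlapped between conditions, with log2 fold changes of 0.07 and -0.08.

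Both tested members of nucleotide supply rose, and by very different amounts (2 of 2 called, beside 42.3% of all genes tested). They encode the subunits of ribonucleotide reductase, which makes deoxyribonucleotides. Rrm2, the small subunit that is tied to S phase, counted 22 and 15 reads in the medium pair and 84 and 107 in the TL1A pair, or 1.75 and 1.12 against 7.81 and 9.23 CPM. Its increase of 5.92-fold was the largest of the tested members (log2 fold change 2.56, SE 0.33, adjusted p by edgeR = 0.000736). Rrm1, the large subunit, was at 208 and 200.2 CPM in medium and 247 and 257 CPM with TL1A. It rose by 0.30 on the log2 scale (SE 0.07, adjusted p by edgeR = 0.0139), a call that was lost with the total of assigned reads as scale (0.05, adjusted p = 0.642) and without TL1A replicate 2 (adjusted p = 0.0929). The read ratio of Rrm2 to Rrm1 was 0.00841 and 0.00561 in medium and 0.0317 and 0.0358 with TL1A.

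Regulators of the G1/S step were hardly measured. Of 7, only Cdk2, the kinase partner of cyclin E, was tested. It counted 7 and 14 reads in the medium pair and 12 and 15 in the TL1A pair, an interval of -0.72 to 1.86 on the log2 scale. No statement on cyclin E or on the activating E2F genes can be drawn from these counts.

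The tested mitosis members gave little signal other than Top2a. Top2a, the topoisomerase that untangles chromosomes in S phase and mitosis, was at 22.5 and 18.6 CPM in medium and 45.8 and 47.9 CPM with TL1A, without overlap. It rose 2.27-fold (log2 fold change 1.19, SE 0.15, adjusted p by edgeR = 0.000647). Mki67 counted 44 and 36 reads in the medium pair and 45 and 38 in the TL1A pair, or 3.50 and 2.70 against 4.19 and 3.28 CPM. Its libraries overlapped, and its log2 fold change was 0.27 with an interval of -0.52 to 1.05. The read ratio of Top2a to Mki67 was 6.43 and 6.92 in the medium pair and 10.9 and 14.6 in the TL1A pair. Top2a was then set aside, after its value was seen. The other 18 mitosis members summed to 22 and 21.5 CPM in medium and 21.5 and 23.1 CPM with TL1A, so the conditions overlapped. Of these, 7 have several rows and added few reads, and single genes in the sum moved either way. An overlap of the sums does not show that no single gene changed.

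The kinases and cyclins of mitotic entry were near the lower limit of counting. Cdk1, the mitotic kinase, counted 20 and 33 reads in the medium pair and 29 and 31 in the TL1A pair (interval -0.53 to 1.32 on the log2 scale). Ccna2, the gene of cyclin A2, had 20 and 12 against 13 and 15 reads (-1.17 to 1.20). Ccnb2, the gene of cyclin B2, had 5 and 19 against 9 and 11 reads, and its interval was -1.64 to 1.56. None of these intervals leaves out a doubling. Plk1, a kinase of mitotic entry and spindle assembly, had 19 and 27 against 9 and 24 reads. Ccnb1 counted 10 and 4 reads in the medium pair and 4 and 0 in the TL1A pair and was not tested. For the 4 tested genes of this role, edgeR gave 0 calls, none had an unadjusted p under 0.05, and DESeq2 and limma-voom gave 0 calls.

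The tested members of the chromosomal passenger complex and the spindle did not pass either, and Birc5, Kif20a, Tpx2 and Nusap1 were not tested. Aurkb, the kinase of the passenger complex, had 42 reads in each medium library and 16 and 20 with TL1A, so its libraries did not overlap. Its log2 fold change was -1.01 (SE 0.37, adjusted p by edgeR = 0.0612), and it passed as lower with the total of assigned reads as scale (-1.26, adjusted p = 0.0242). Birc5, the gene of survivin in the same complex, counted 1 and 0 reads in the medium pair and 1 and 8 in the TL1A pair over 2 rows. Bub1b, of the spindle checkpoint, had 22 and 39 against 38 and 50 reads, or 1.75 and 2.92 against 3.53 and 4.31 CPM (log2 fold change 0.74, SE 0.38). Cdc20, which activates the anaphase-promoting complex, had 28 and 16 against 9 and 16 reads (-0.61, SE 0.53). The motor genes Kif11 and Cenpe had 33 and 18 against 8 and 21 reads and 33 and 41 against 46 and 33 reads. On the CPM scale the conditions did not overlap for Bub1b, which missed the threshold, whereas those of Cdc20, Kif11 and Cenpe overlapped.

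Further genes of the same processes, from lists drawn up with earlier results of these data known, were counted in the same way. Of 40 other replication genes, 30 were tested, of which 7 rose, 5 fell and 18 did not pass, with a median log2 fold change of -0.10. The share called was 40%, near the 42.3% of all genes tested. The count of 7 was 4 with the replicate number as a block, 1 with the total of assigned reads, 2 without TL1A replicate 1, and 4 without medium replicate 1 or TL1A replicate 2. Rfc1, the large subunit of the clamp loader, fell from 468 ± 0.112 to 268 ± 14.2 CPM, or by 0.80 on the log2 scale (SE 0.07, adjusted p by edgeR = 0.000112). Hells, a chromatin remodeller, fell by 1.09 (SE 0.11), Dck, the deoxycytidine kinase of nucleotide salvage, by 1.5 (SE 0.21) and Orc5 of the origin recognition complex by 0.64 (SE 0.13). Subunits that accompany Pole, picked out after their values were seen, gave 0.90 for Pole2 (SE 0.27, adjusted p = 0.0296), 0.36 for Pole3 (SE 0.12, adjusted p = 0.0445) and -0.14 for Pole4 (SE 0.19, adjusted p = 0.604).

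Of 44 other mitosis genes, 29 were tested, of which 5 rose, 3 fell and 21 did not pass, with a median of 0.17. The share called was 27.6%, beside 42.3% of all genes tested. Leaving out medium replicate 2 lowered the count of 5 to 2, and leaving out TL1A replicate 2 lowered it to 3. Melk, a kinase gene that is high in many cycling cells, counted 10 and 7 reads in the medium pair and 154 and 166 in the TL1A pair. It rose by 4.42 on the log2 scale (SE 0.31, adjusted p by edgeR = 3.17e-05). Cks1b, a small partner of cyclin-dependent kinases, rose by 1.5 (SE 0.18). Cenpn, of the centromere, fell by 1.76 (SE 0.17), and Hmgb2, a chromatin protein gene, fell by 1.06 (SE 0.18).

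The regulators above these genes were covered by the last pair of lists. Of 18 transcription regulators of the cell cycle, 9 were tested, none rose and 1 fell (11.1% called, beside 42.3% of all genes tested), with no unadjusted p under 0.05 in the higher direction and 0 higher in DESeq2 and limma-voom. The 1 was Rbbp4, a subunit of MuvB and of chromatin complexes (log2 fold change -0.20, SE 0.07, adjusted p by edgeR = 0.0494). That call was lost with RLE factors, DESeq2, the replicate block and separate transcript rows, and when medium replicate 1 or either TL1A library was left out. Foxm1 counted 1 and 1 reads in the medium pair and 3 and 10 in the TL1A pair. Of 13 cyclins, kinases and inhibitors of G1, 8 were tested, of which 4 rose and 2 fell. That is 75% called, beside 42.3% of all genes tested, in a list drawn up with earlier results of these data known. The share is thus no measure of an excess. Ccnd2, the gene of cyclin D2, rose from 103 ± 5.40 to 2215 ± 86.6 CPM (log2 fold change 4.42, SE 0.08) and Cdk6, its kinase partner, from 3.95 ± 0.608 to 37.1 ± 2.44 CPM. The inhibitor gene Cdkn1b, which encodes p27, fell by 1.15 (SE 0.10), while the inhibitor gene Cdkn2b counted 0 and 4 reads in the medium pair and 69 and 82 in the TL1A pair.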

How the data were processed

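RNA of sorted mouse ILC3s was made into cDNA with a SMARTer kit for ultra low input, per the labels' protocols. CASAVA, STAR and HTSeq were used on genome build mm9, per the submitters' processing notes. Strand setting, tool versions and annotation are not stated there. The authors deposited raw read counts per RefSeq transcript accession (33535 rows) and 5 HTSeq summary rows, which name no gene, were left out of totals and tests, and made up 69.9% to 71.3% of each column's sum. Of assigned plus ambiguous reads, 33.7% to 34.0% were ambiguous.

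Accessions were matched to symbols through a RefSeq table of GRCm38.p6, used for names because the files are on mm9: 33154 rows matched, giving 23962 symbols, and 381 rows (0.851% to 0.900% of assigned reads) kept their accession. Rows of a gene were summed. The members and lists were chosen with earlier results of these data known. The test was edgeR 4.0.16 in R 4.3.3 (filterByExpr with a minimum count of 10, glmQLFit, glmQLFTest, no term but the group, TMM factors 1.09 in both medium libraries and 0.908 and 0.921 under TL1A, two-sided, Benjamini-Hochberg over all 9852 genes tested). CPM are scaled by TMM; SE is the log2 fold change over the square root of F, and 95% intervals use its t quantile. With 2 libraries a group, p = 0.333 is the smallest value an exact permutation test allows. Between libraries of a group, chi-square per degree of freedom was 11.5 and 7.5, so neither pair was 1 library deposited again. On simulated counts of the TL1A comparison (9664 genes), the share recovered was 20.4% for a log2 change of 0.5 and 86% for 1. Every simulated gene had the same dispersion, a biological coefficient of variation of 0.12, and far fewer genes changed than were called here. These shares may therefore not hold here, least of all for members with low counts, whose SE are larger. Alternatives used limma 3.58.1 and DESeq2 1.42.0.

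The log2 fold change, SE and adjusted p were given for each member past an adjusted p of 0.05. Also named were the 4 members of each role with the smallest p and 6 usual proliferation markers. Of each further list, up to 4 passing genes with the smallest p were named. For some of the genes named by these rules only part of the values is given, such as reads or an interval. Some marker genes are not reported here.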

Additional observations from a re-analysis of the deposited data

How the results depend on the processing

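Over 13 alternatives the count of members that rose lay between 5 and 8 (7 as reported) and of those that fell between 2 and 3 (2 as reported), and no member that passed changed direction. Mcm3, Mcm7, Mcm10, Pola1, Pole, Rrm2 and Top2a passed in each. With the total of assigned reads in place of TMM factors, 1310 genes were higher and 3475 lower over the whole table, 1 mitosis member was lower, 1 other replication gene was higher and 10 lower, 7 other mitosis genes were lower and 2 transcription regulators were lower. The 1 lower transcription regulator became 0 with RLE factors, with DESeq2, with the replicate block and with each transcript row on its own; over the libraries left out in turn it ranged from 0 to 1. The replicate block also gave 4 other replication genes higher; it changed no member's call. Without a library in turn, other replication genes higher ranged from 2 to 5 and other mitosis genes higher from 2 to 6. The titles share replicate numbers but no label says what a number stands for, and deviations of same-numbered libraries correlated at -0.18 across genes; whether the numbers pair the libraries is not known, and they were not treated as pairs. Genes with 1 row alone, each row on its own, a filter of 1 CPM in 2 libraries and no filter changed no member's call. Depth limits the mitosis members: all of those tested other than Top2a had 50 reads or fewer in each library, and their intervals are wide.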
